A study of Oryza sativa Indica Group with 9 samples.

Results

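The long miRNAs described here were the 88 distinct sequences of 23 or 24 nt that the authors listed as known rice miRNAs or as conserved miRNAs of other plants. They were chosen by length, after 46 family numbers had been set apart, and they made up 88 of the 483 distinct sequences listed and 88 of the 173 of 23 or 24 nt. The families set apart include some that were singled out because they changed in these same libraries, so a low count of changes among the 88 is in part fixed by the choice. The leaves came from seedlings of HT54, a breeding line of Indica rice (Oryza sativa) that the submitters describe as heat tolerant, at the 3-leaf stage. Leaves were taken before heating (0 h) and after 12 and 24 h at 45 °C, and every group shares the line, the stage and the tissue. Each time point had 2 small RNA libraries, numbered 1 and 3, and 1 degradome library, in which the 5′ ends of cleaved mRNA are sequenced. A further small RNA library of each time point was judged unsuitable by the submitters and left out, and unheated leaves sampled at the later times were not analysed here, so heat and elapsed time cannot be told apart.

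Most plant miRNAs are of 21 nt, are cut from a hairpin by DCL1 and guide AGO1 to slice mRNA. Long miRNAs of rice are cut by DCL3, are loaded into proteins of the AGO4 clade, which favour a 5′ adenine, and are known to direct DNA methylation rather than mRNA cleavage. Several of their hairpins, those of miR812 among them, lie in short inverted-repeat transposons called MITEs.

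Of the 88 sequences, 80 were of 24 nt and 8 of 23 nt. An adenine stood first in 61 of them (69.3%), a guanine in 14, a thymine in 9 and a cytosine in 4. Among the other 85 listed sequences of 23 or 24 nt the adenine share was 58.8%, and among the 183 listed sequences of 21 nt it was 17.5%, where thymine led with 58.5%. The rice table held 78 of the 88 and the table of conserved miRNAs 10. The names covered 47 family numbers, 26 of them with a single sequence. Only 35 sequences carried the name of a database mature miRNA. The other 53 were named by the authors after the arm of a known precursor, and 41 carried substitutions (ss in the name), while L and R in a name mark bases added or removed at its ends.

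The sequences on which the results turn are shown first, 5′ to 3′ and in DNA letters as deposited. Capitals mark the seed, bases 2 to 8, with which a small RNA first pairs. The first set holds the 3 sequences that changed between 0 and 24 h and their close relatives, which shows that the miR6478 forms share a seed and that both miR8005 forms are frames of the same repeat.
tae-miR9774_L+2R-1_1ss22GT: aGCAAGATattgggtatttcttt
tae-MIR9774-p5_2ss22AT23GC: aGAAATACccaatatcttgcttca
ptc-miR6478_R+2_1ss21GA: cCGACCTTagctcagttggtaga
ptc-miR6478_R+2_2ss10GA21GA: cCGACCTTaactcagttggtaga
ptc-miR6478_R+3_2ss10GA21GA: cCGACCTTaactcagttggtagag
stu-MIR8005a-p3_1ss6GA: gGTTTAGGgtttagggtttagggt
stu-MIR8005a-p3_1ss5GA: gTTTAGGGtttagggtttagggtt

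The second set holds the pair of arms of osa-miR5150 and the most abundant rice miRNA of the 88, osa-miR812k.
osa-miR5150-5p: aGCTTCTGacagctgcagtttctc
osa-miR5150-3p_L-1R+1: gAAGCTGCagctgtcagaagctcc
osa-miR812k: aCGAACGGttaaagttggacgcgg

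The third set holds 4 sequences, named for 3 different families, that share a run of letters, and the fourth shows the seed most often shared.
osa-MIR1863c-p3: aGCTCTGAtaccatgttattgatt
osa-miR1863a: aGCTCTGAtaccatgttagattag
osa-miR1871: aTGGCTCTgatatcatgttggttt
osa-MIR1873-p3: tCTAGCTCtgataccatgttgagt
osa-MIR5788-p5_2ss17GA20AG: aGATTCGTagtactagaatgtgtc
osa-MIR5788-p3_1ss20AG: aGATTCGTagtactaggatgtgtc
osa-MIR814b-p5_2: aGATTCGTtgtactataaagtgtc
osa-MIR814a-p3: aGATTCGTtgtactatgaagtgtc

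The 88 sequences held 75 distinct seeds, and 5 seeds were shared by 18 of them. The seed GATTCGT stood in 8 sequences of the families miR5788 and miR814, CGACCTT in 3 of miR6478, and TTCGTAG in 3 of miR816 and miR5788. The seeds CGAGACA (miR814) and GCTCTGA (miR1863) stood in 2 sequences each. The motif AGATTCGTNGTA, the consensus of the 8 sequences with the seed GATTCGT, was searched on both strands and found in 11 of the 483 listed sequences (2.28%), all among the 88. The core CTCTGATANCATGTT of the third set, searched likewise, was found in 4 of 483 (0.828%), all among the 88, on precursors of 4 different chromosomes. Both motifs were taken from these sequences, so their absence from other entries is a description. A shorter listed sequence outside the 88, cpa-miR8155_L-1 of 18 nt, ends in the first part of the core and so cannot match it whole.

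Relations between entries were common. A run of at least 16 nt was shared with another listed sequence by 35 of the 88, on the same strand by 31 and with the reverse complement by 14. osa-MIR814a-p3 and osa-miR814a_L+2 were exact reverse complements, listed on opposite strands of chromosome 2. tae-miR9774_L+2R-1_1ss22GT shared a run of 21 nt with the reverse complement of tae-MIR9774-p5_2ss22AT23GC. All listed positions of these 2 sequences were on the plus strand. The pairs osa-MIR814b-p5_1 with osa-MIR814b-p5_2 and osa-MIR7695-p3_1ss23TC_1 with osa-MIR7695-p3_1ss23TC_2 had identical values in every library and are not independent measurements. These identical pairs are not close in sequence. The osa-MIR7695 pair had no shared run on either strand, and the osa-MIR814b pair only 12 nt with the reverse complement. Why their values are identical was not tested, and their levels are uncertain. Reads that match several entries were divided among them, so the levels of relatives with long shared runs are uncertain as well.

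Precursor positions were listed for 85 of the 88, with coordinates of an unnamed genome build, and genes around them were not analysed here. Listed were 94 positions, 9 of the 85 having more than 1, and their precursors spanned 34 to 406 nt. At 4 positions the span was too short for 2 copies of the mature sequence. These were 34 nt for ptc-miR6478_R+2_1ss21GA (chr2:31853020-31853053, plus strand), 36 nt for osa-MIR814b-p5_2 (chr2:26341249-26341284, plus strand), 37 nt for stu-MIR8005a-p3_1ss5GA (chr1:16995704-16995740, plus strand) and 39 nt for stu-MIR8005a-p3_1ss6GA (chr5:14944889-14944927, minus strand). ptc-miR6478_R+2_1ss21GA and stu-MIR8005a-p3_1ss5GA each had a further listed position, with spans of 91 nt (chr8:19475019-19475109, plus strand) and 134 nt (chr2:9010833-9010966, minus strand). A miRNA hairpin holds 2 arms of the mature length. The listed precursors of osa-MIR814b-p5_2 and stu-MIR8005a-p3_1ss6GA, with 1 position each, are too short for that. ptc-miR6478_R+2_1ss21GA holds the letters TNGCNNAGNNGG, after box A of tRNA genes, which stood on either strand in 6 of 483 listed sequences (1.24%), each of them a miR6478 form. Its variants with 2ss10GA21GA in the name hold TNACNNAGNNGG, which stood in 4 of 483 (0.828%). The plant telomere repeat TTTAGGG stood in 5 of 483 (1.04%), and a double copy, TTTAGGGTTTAGGG, stood in 3 (0.621%), all named miR8005. A match describes the letters and names no source of the reads.

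Pairs of values below give replicate 1 first and replicate 3 second. Listed reads per library came to 33623 and 102513 before heating, to 147038 and 10314 after 12 h and to 119293 and 227965 after 24 h. Levels are in CPM (read counts relative to the listed reads of the library after TMM scaling). A count of 3 reads, taken as the floor of detection, was worth 195 CPM in 12 h replicate 3 and between 16.1 and 78.2 CPM in the other libraries. In 12 h replicate 3, 34 of the 88 sequences were at or under that floor, against 0 to 18 in the others. The long miRNAs together held 27119 reads. The 3 most read had 35.1% of these and the 15 most read 66.7%, while the median sequence had 100.5 reads over all 6 libraries.

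The long miRNAs held a smaller part of the listed reads at 24 h than at the other times. Their share was 7.93 and 5.86% before heating, 4.67 and 9.30% after 12 h, and 3.15 and 3.02% after 24 h. Both 24 h libraries were below every other library, and the 12 h libraries enclosed both 0 h libraries. Without the 3 most abundant listed sequences, osa-miR396e-5p, ppt-miR894_R+1 and osa-miR156a_L+1, the shares were 10.2 and 7.34%, 7.10 and 11.6%, and 6.47 and 5.12% in the same order, and the 24 h libraries were still lowest. With 2 libraries per time point no permutation test can pass a threshold of 0.05, and none was made on the shares. Within the long miRNAs the 8 sequences of 23 nt held 44.1 and 51.0% of the reads before heating, 25.9 and 17.9% after 12 h, and 14.5 and 24.1% after 24 h, with no overlap between 0 h and the later times. The 57 sequences of 24 nt that start with A, the form AGO4-clade proteins favour, held 45.6 and 41.0%, 63.7 and 65.2%, and 71.0 and 60.0%. They held the larger part of the reads in every heated library and in neither 0 h library. Shares within the long miRNAs add up to the whole, so a smaller 23 nt share leaves a larger one to the rest. Of 2666 and 6005 long miRNA reads at 0 h, tae-miR9774_L+2R-1_1ss22GT had 660.5 and 2024, and ptc-miR6478_R+2_1ss21GA had 399 and 699.5. At 24 h these 2, both of 23 nt, had 217.5 and 940.5, and 165 and 370, of 3752 and 6878. Of all listed reads these 57 sequences held 3.62 and 2.40% before heating, 2.97 and 6.06% after 12 h, and 2.23 and 1.81% after 24 h, and the 23 nt sequences held 3.50 and 2.98%, 1.21 and 1.67%, and 0.457 and 0.728%. As shares of listed reads, both 24 h libraries were thus below both 0 h libraries in each class. None of these shares is TMM-scaled, and the TMM factors were 1.14 and 1.02 at 0 h and 0.697 and 0.819 at 24 h. After TMM scaling the 53 tested sequences of 24 nt starting with A had a median log2 change of 0.01 at 24 h. A lower share of this class is therefore not a lower scaled level.

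**Figure D1:**
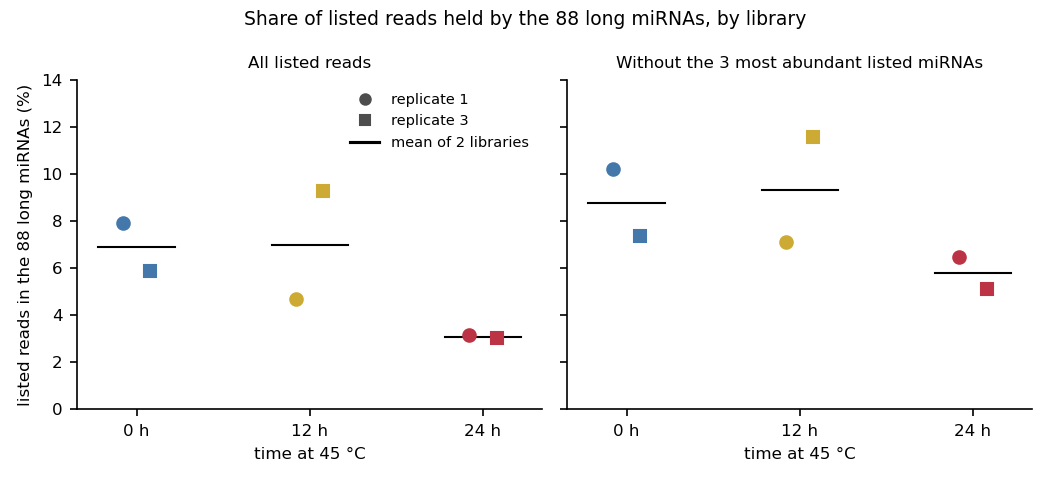
Share of listed reads (percent) held by the 88 long miRNAs in each small RNA library against time at 45 °C, with all listed reads on the left and without the 3 most abundant listed sequences on the right. Points are libraries and lines are means of 2 libraries. Both 24 h libraries, at 3.15 and 3.02% on the left, lie below all others in each panel.

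Between 0 and 24 h 3 long miRNAs changed, 2 lower and 1 higher, and all 3 were listed as conserved miRNAs of other plants. The 1 higher, stu-MIR8005a-p3_1ss6GA, reached the minimum of 10 reads in heated libraries only. Of the 459 sequences tested in the same fit 9.59% changed, 6.97% lower and 2.61% higher, so that 3 of 81 tested long miRNAs is no excess over the background. Of the 71 tested sequences listed for rice 0 changed, with 2 at an unadjusted p under 0.05, while DESeq2 called 1, osa-miR5150-5p, and limma 0. Between 0 and 12 h 0 of 81 changed by edgeR (5 with an unadjusted p under 0.05), against 3.27% of all tested sequences (0.436% higher and 2.83% lower), and DESeq2 and limma also gave 0. Between 12 and 24 h 0 of 81 changed (3 with an unadjusted p under 0.05, 2 of them with identical values), against 0.218%, again with 0 by DESeq2 and limma. The other 7 sequences, with 30.5 to 42.0 reads in all, had too few reads to be tested. Testing used edgeR's quasi-likelihood method with Benjamini-Hochberg adjustment over all 459, and its error rests on a spread shared by all sequences.

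tae-miR9774_L+2R-1_1ss22GT, a 23 nt form of a miRNA named from wheat, was the most abundant of the 88 at 0 h. Its level was 17226 and 19322 CPM before heating, 8378 and 3891 CPM after 12 h, and 2618 and 5039 CPM after 24 h. Every heated library lay below both 0 h libraries, and the 12 h and 24 h libraries overlapped. It fell between 0 and 24 h, with a log2 change of −2.25 ± 0.74 (± SE here and below, from 2 libraries a time, edgeR adjusted p = 0.0318), and at 12 h the change was −1.56 ± 0.73 with an adjusted p of 0.285. The fall passed in 7 of 15 alternative settings. It no longer passed without any 1 of the 4 libraries of 0 and 24 h, where the change ran from −2.65 to −1.89.

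The partly reverse-complementary form tae-MIR9774-p5_2ss22AT23GC had 861 and 1847 CPM before heating, 348 and 324 after 12 h, and 283 and 986 after 24 h. The 12 h libraries were below both 0 h libraries, while 24 h replicate 3 lay between them. Its change was −2.00 ± 0.76 at 12 h (adjusted p = 0.148) and −1.08 ± 0.70 at 24 h (adjusted p = 0.374). The 23 nt form tae-MIR9774-p5_2ss21AT22GC, contained in it, had 313 and 764, 206 and 195, and 102 and 592 CPM. Both 12 h libraries were below 0 h, and 24 h replicate 3 lay between the 0 h libraries. The 22 nt form tae-miR9774_L+1R-1_1ss21GT, contained in tae-miR9774_L+2R-1_1ss22GT, is not among the 88. It had a change of −1.72 ± 0.73 at 24 h (adjusted p = 0.111). Reads of tae-miR9774_L+2R-1_1ss22GT were counted for each 100 reads of that 22 nt form. They came to 179 and 158 before heating, 125 and 162 after 12 h, and 132 and 109 after 24 h. The 24 h ratios were below both 0 h ratios, and the 12 h ratios overlapped them.

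ptc-miR6478_R+2_1ss21GA, a 23 nt form of a miRNA named from poplar, had 10406 and 6678 CPM before heating, 2013 and 3826 CPM after 12 h, and 1986 and 1982 CPM after 24 h. The 3 time points did not overlap, although 12 h replicate 1 and the 24 h libraries were nearly level. It fell between 0 and 24 h with a log2 change of −2.10 ± 0.73 (adjusted p = 0.0460), and at 12 h the change was −1.57 ± 0.73 (adjusted p = 0.283). The call held in 4 of 15 alternative settings and was lost without any 1 of the 4 libraries of 0 and 24 h, where the change ran from −2.45 to −1.75.

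Its 21 nt form, ptc-miR6478_1ss21GA, differs from it only by lacking the last bases and is not among the 88. That form had 16965 and 12702 CPM at 0 h, 5993 and 6647 after 12 h, and 8816 and 8487 after 24 h. Every heated library of it was below both 0 h libraries. Its log2 change between 0 and 24 h was −0.78 ± 0.72 (adjusted p = 0.569). For each 100 reads of it the 23 nt form had 61.3 and 52.6 reads at 0 h, 33.6 and 57.6 after 12 h, and 22.5 and 23.4 after 24 h. Both 24 h ratios were below all others, and 12 h replicate 3 stood with the 0 h libraries. The 2 length forms were compared within each library after the values had been seen, and the difference between their changes was not tested. The variant ptc-miR6478_R+2_2ss10GA21GA, also of 23 nt, had 1408 and 592 CPM at 0 h, 233 and 584 after 12 h, and 253 and 276 after 24 h, a change of −1.88 ± 0.75 at 24 h that missed the threshold (adjusted p = 0.0910). The 24 nt variant ptc-miR6478_R+3_2ss10GA21GA had a change of −1.08 ± 0.80 (adjusted p = 0.475). A longer form of 25 nt, ptc-miR6478_R+4_1ss21GA, contains ptc-miR6478_R+2_1ss21GA and is not among the 88. It had 5216 and 1776 CPM at 0 h, 2182 and 2983 after 12 h, and 3105 and 2082 after 24 h. Its 0 h libraries enclosed all the others, at a change of −0.43 ± 0.71 at 24 h (adjusted p = 0.781).

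**Figure D2:**
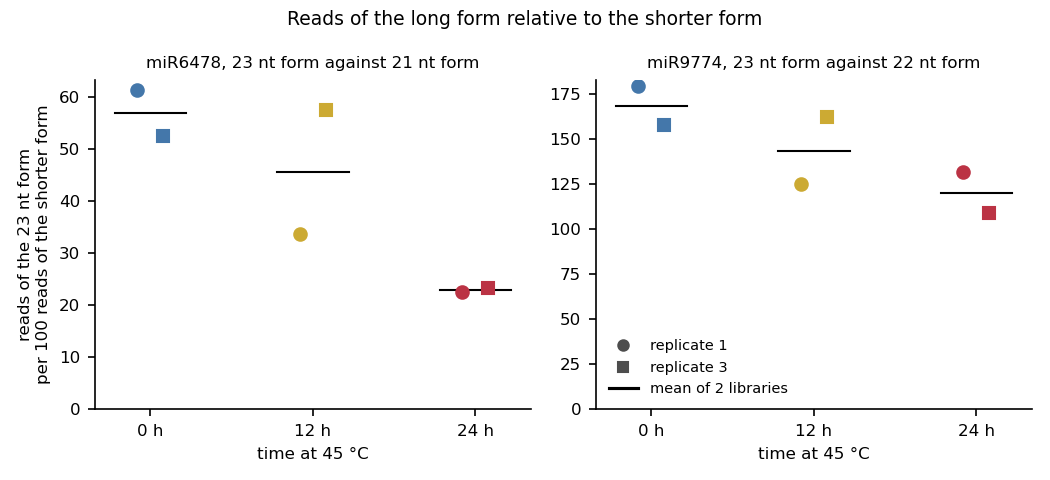
Reads of the 23 nt form per 100 reads of the shorter form in each library against time at 45 °C, for miR6478 (21 nt form) and miR9774 (22 nt form). Points are libraries and lines are means of 2 libraries. For miR6478 the 24 h libraries, at 22.5 and 23.4, lie below the 0 h libraries, at 61.3 and 52.6.

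stu-MIR8005a-p3_1ss6GA, the telomere-repeat sequence named from a potato precursor, had 0 and 1 reads at 0 h, 12 and 3.5 after 12 h, and 8.5 and 22 after 24 h. Every heated library was above both 0 h libraries. It rose between 0 and 24 h by 3.76 ± 1.28 (log2, adjusted p = 0.0411). That fitted value depends on how a count of 0 is treated. The minimum of 10 reads was reached only in 12 h replicate 1 and 24 h replicate 3. Entry into the test thus depended on heated libraries, and the call gives no separate support for a rise. The ratio of reads scaled to library size, 30 at 24 h against 1 at 0 h after rounding, was 15.9 with an exact 95% interval of 2.65 to 649 that covers counting error only. At 12 h the change was 3.98 ± 1.36 with an adjusted p of 0.0818. The rise passed in 3 of the 11 alternative settings in which the sequence was tested, and was lost without 0 h replicate 1, 0 h replicate 3 or 24 h replicate 1. Leaving out 12 h replicate 1 or 24 h replicate 3 took it under the minimum of reads.

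The other frame of the repeat, stu-MIR8005a-p3_1ss5GA, had 1.5 and 8.5 reads at 0 h, 10 and 3.5 after 12 h, and 13 and 49.5 after 24 h. Its 24 h libraries were above the 0 h libraries, at a change of 1.66 ± 0.88 (adjusted p = 0.256). The 21 nt form stu-MIR8005a-p3_1ss1GT, contained in both, had a change of 1.22 ± 0.87 (adjusted p = 0.450). A further thin sequence, osa-MIR5788-p5_1ss7GA, had 0 and 2 reads at 0 h, 12 and 0.5 after 12 h, and 13 and 16 after 24 h, with a change of 3.01 ± 1.14 at 24 h that missed the threshold (adjusted p = 0.0739). It too reached 10 reads in heated libraries only, and it is named after its values were seen.

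**Figure D3:**
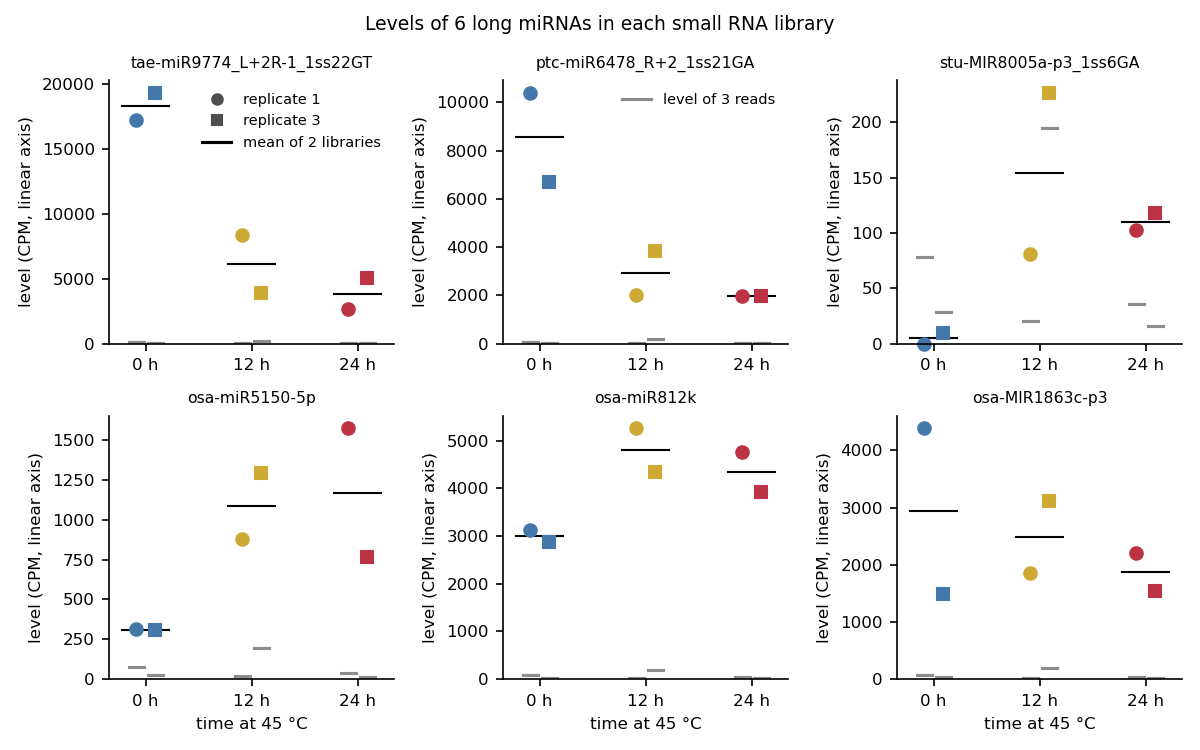
Level (CPM, linear axis from 0) of 6 long miRNAs in each small RNA library against time at 45 °C. Points are libraries, black lines are means of 2 libraries and grey dashes mark the level of 3 reads in each library. The top row holds the 3 sequences that changed between 0 and 24 h, of which stu-MIR8005a-p3_1ss6GA was at 0 and 1 reads at 0 h.

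The most abundant rice entries did not change past the threshold. osa-miR812k, of the MITE-borne miR812 family and without a listed position, had 3130 and 2883 CPM at 0 h, 5267 and 4345 after 12 h, and 4772 and 3926 after 24 h. Its heated libraries were all above the 0 h libraries, at 0.68 ± 0.71 (adjusted p = 0.706) and 0.53 ± 0.71 (adjusted p = 0.708). osa-miR812n-5p (chr8:14108082-14108284, minus strand) had 1400 and 1036 CPM at 0 h, 1649 and 2102 after 12 h, and 2093 and 1359 after 24 h, with 24 h replicate 3 between the 0 h libraries.

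osa-MIR1863c-p3 (chr12:4869207-4869497, plus strand) had 4390 and 1483 CPM at 0 h, 1847 and 3113 after 12 h, and 2203 and 1548 after 24 h, so that its 0 h libraries enclosed all the others. osa-MIR1870-p5 had 2086 and 1432 CPM at 0 h, 1027 and 3048 after 12 h, and 1456 and 948 after 24 h, with the time points overlapping. osa-miR5083_L+4 had 1643 and 2253, 1277 and 1232, and 1890 and 1372 CPM, lower in both 12 h libraries than at 0 h. The changes of these at 24 h lay between −0.64 and −0.26, with adjusted p values from 0.640 to 0.887.

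Of the remaining sequences among the 15 most abundant, osa-miR1878 had the lowest log2 change at 24 h. It had 2269 and 1088 CPM at 0 h, 764 and 1686 after 12 h, and 710 and 664 after 24 h, a change of −1.28 ± 0.72 (adjusted p = 0.284). Its 24 h libraries were below all others. osa-MIR1873-p5_1ss20GA had the highest of them, 0.81 ± 0.73 (adjusted p = 0.557), from 887 and 1098 CPM at 0 h to 2383 and 1109 at 24 h. osa-MIR5542-p3, osa-miR1871, osa-MIR2122-p5, osa-MIR1863a-p5 and osa-MIR1873-p3 had changes between −0.67 and 0.64.

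Among the sequences above the median level, those with the highest log2 changes at 12 h were osa-miR5150-5p, sbi-miR821a_L+2R+1_2ss15TA16AC and osa-MIR2878-p3. sbi-miR821a_L+2R+1_2ss15TA16AC, named from sorghum, had 261 and 253 CPM at 0 h, 649 and 811 after 12 h, and 548 and 244 after 24 h, a change of 1.47 ± 0.79 at 12 h (adjusted p = 0.407). osa-MIR2878-p3 had 104 and 181, 345 and 454, and 265 and 134 CPM, a change of 1.36 ± 0.84 at 12 h (adjusted p = 0.439). Both were above 0 h in each 12 h library and overlapped it at 24 h. osa-miR2121a had 261 and 248, 480 and 778, and 674 and 348 CPM, above 0 h in every heated library, at 0.99 ± 0.76 for 24 h (adjusted p = 0.497).

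Between 12 and 24 h the lowest changes of this kind were those of osa-MIR1871-p5, osa-MIR5824-p5_1ss20TC and osa-miR2873a. osa-MIR1871-p5 had 601 and 1297 CPM at 12 h and 289 and 295 CPM at 24 h, a change of −1.63 (adjusted p = 0.524). osa-MIR5824-p5_1ss20TC had 352 and 267 CPM at 0 h, 851 and 681 after 12 h, and 361 and 343 after 24 h, with both 12 h libraries above all others. osa-miR2873a had 568 and 1232 CPM at 12 h and 481 and 340 CPM at 24 h. Among rice entries above the median level the highest change was that of osa-MIR5079a-p5, from 230 and 130 CPM at 12 h to 265 and 638 CPM at 24 h (log2 change 1.20, adjusted p = 0.779), with both 24 h libraries above both of 12 h. Its value in 12 h replicate 3 rests on 2 reads, under the floor of 3.

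As a list, the 81 tested long miRNAs lay higher at 12 h than at 0 or 24 h, without a change of any single sequence past the threshold. Their median log2 change at 12 h was 0.40, against −0.03 for all 459 tested, and 53 of 81 were positive. Both 12 h libraries were above both 0 h libraries in 25 sequences (30.9%, against 17.6% of all tested) and below them in 10 (12.3%, against 24.6%). At 24 h against 0 h the median was −0.01, against 0.00, with 16 sequences wholly above and 16 wholly below (19.8% each, against 27.2% and 27.7%). At 24 h against 12 h the median was −0.39, against 0.01, with 6 wholly above (7.41%, against 19.8%) and 26 wholly below (32.1%, against 15.9%). The comparisons share libraries and are not independent of each other.

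The medians of the list depended on single libraries. The 12 h median against 0 h was 0.13 without 12 h replicate 3, the library with the fewest reads, 0.11 without 0 h replicate 3, 0.67 without 0 h replicate 1 and 0.80 without 12 h replicate 1. That at 24 h against 12 h was −0.08 without 12 h replicate 3, −0.22 without 24 h replicate 3, −0.65 without 24 h replicate 1 and −0.74 without 12 h replicate 1. The 24 h median against 0 h was −0.41 without 24 h replicate 1, −0.14 without 0 h replicate 3, 0.08 without 12 h replicate 1, 0.33 without 24 h replicate 3 and 0.34 without 0 h replicate 1, so its sign was not fixed. With the authors' constants in place of TMM the medians were 0.25 and −0.15, while the medians of all tested sequences moved to −0.21 and 0.28. The list was chosen with earlier results known, and the medians describe these libraries only.

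The sub-lists did not move alike in their medians. The 8 sequences of 23 nt had a median of −1.10 at 12 h and −0.88 at 24 h, and 5 of the 8 are forms of miR6478, miR9774 or miR394, while the 73 tested sequences of 24 nt had 0.45 and 0.01. The 10 conserved entries had −1.27 and −0.97, and the 71 tested rice entries 0.42 and 0.00. The 53 tested sequences of 24 nt starting with A had 0.54 at 12 h and 0.01 at 24 h, and the 20 with another first base 0.27 and 0.07. The 38 with a substitution had 0.47 and −0.01, and the 43 without had 0.35 and −0.01. The 32 tested with a database mature name had 0.20 and −0.04, and the 49 named after a precursor arm 0.46 and −0.01. The differences between sub-lists were not tested.

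**Figure D4:**
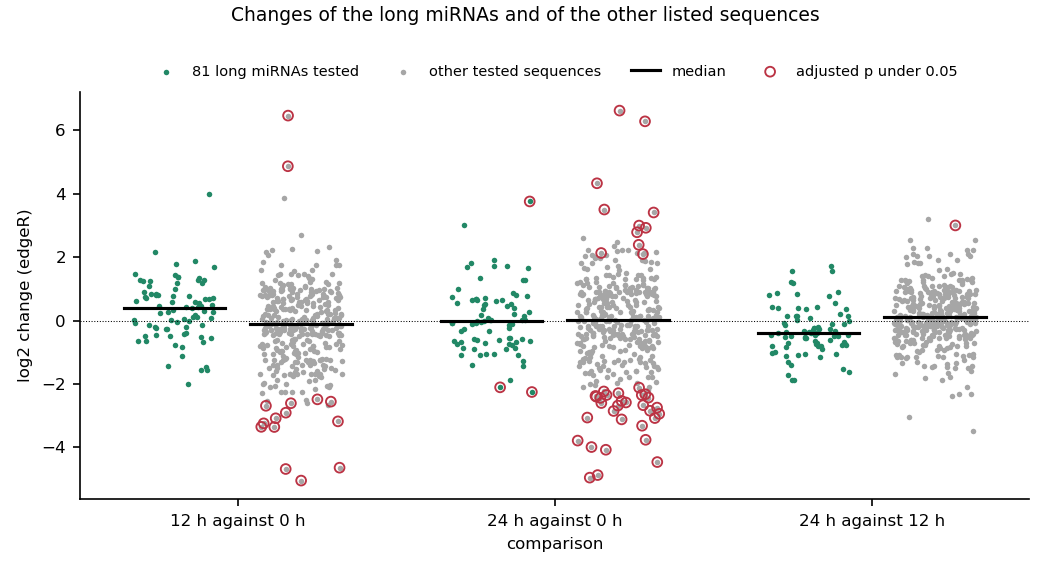
Log2 change (edgeR) of each tested sequence in the 3 comparisons of time points, with the 81 tested long miRNAs in green and the other tested sequences in grey. Black lines are medians and red rings mark an adjusted p under 0.05. Long miRNAs carry 3 rings, all at 24 h against 0 h.

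The families miR812, miR814, miR816, miR818 and miR5788 held 25 of the 88 sequences, a grouping made after the sequences had been seen, and their members had few reads apart from miR812. The 8 sequences of miR5788 summed to 564.5 reads over the 6 libraries, the 7 of miR814 to 353, the 3 of miR818 to 142, the 2 of miR816 to 91.5 and the 5 of miR812 to 3549. The sum of miR5788 was 1460 and 926 CPM at 0 h, 1000 and 1167 after 12 h, and 1198 and 782 after 24 h, with all time points overlapping. The sum of miR814 was 1148 and 487, 774 and 1589, and 608 and 367 CPM, likewise overlapping at 0 and 24 h. Of the 23 tested sequences 0 changed in any comparison by edgeR, DESeq2 or limma, against 3.27% of all tested sequences at 12 h and 9.59% at 24 h against 0 h, and 0.218% at 24 h against 12 h, by edgeR. At an unadjusted p under 0.05 there were 0 at 12 h against 0 h and 1 at 24 h against 0 h. At 24 h against 12 h there were 2, osa-MIR814b-p5_1 and osa-MIR814b-p5_2, which hold the same values and are 1 measurement. The 23 had median log2 changes of 0.42 at 12 h and −0.32 at 24 h against 0 h.

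The most abundant sequence of miR5788, osa-MIR5788-p5_2ss17GA20AG, had 404 and 172 CPM at 0 h, 250 and 227 after 12 h, and 187 and 142 after 24 h. osa-MIR814b-p5_2 had 156 and 90.7, 135 and 357, and 48.1 and 64.3 CPM, with both 24 h libraries below all others. osa-MIR816-p3_1ss11TA had 3.5 to 24.5 reads per library, and osa-miR818a_L+1R+1_2ss6CA22GA had 2 to 22. At such depth differences between these sequences were not detectable.

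A miRNA hairpin yields a duplex of its arms, usually with 2 unpaired bases at each 3′ end. For 12 hairpins a sequence listed for each arm was among the 88. In 8 of these both sequences stood exactly in the listed precursor and its fold could be read, and 2 of the 8, osa-miR5150 (22 base pairs) and osa-miR1863a (21 base pairs), had 2 unpaired bases at both 3′ ends. In osa-miR1878 and osa-MIR2873a, with 21 base pairs each, 1 end had 2 unpaired bases. Their other end was not measured, because the first base of the 3′ arm was unpaired. Not all 12 pairs had the form of a duplex. The listed arms of osa-MIR5816 share a run of 23 nt on the same strand. In the listed folds those of osa-MIR1863c formed 0 base pairs and those of osa-MIR1871 formed 2. With these counted in, the listed arm with more reads was the same in all 6 libraries in 10 of the 12. Over all libraries the listed 5′ arm had more reads in 7. Among the listed pairs osa-MIR1863c was the most uneven, with 3.46% of its reads from the 5′ arm, and osa-MIR1870 had 80.6%. The osa-MIR1870 pair formed 13 base pairs with overhangs of 8 bases at both ends. For such pairs the share compares 2 listed stretches of a precursor and may not be a choice between duplex strands.

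The arms of osa-miR5150 (chr4:18470790-18470868, plus strand) stood in unlike ratios in the 6 libraries. The 5′ arm had 12 and 32 reads at 0 h, 130 and 20 after 12 h, and 131 and 143 after 24 h. The 3′ arm had 96 and 111, 132 and 78, and 138 and 310. The share of the 5′ arm was 11.1% (exact 95% binomial interval 5.87 to 18.6%) and 22.4% (15.8 to 30.1%) at 0 h, 49.6% (43.4 to 55.8%) and 20.4% (12.9 to 29.7%) after 12 h, and 48.7% (42.6 to 54.8%) and 31.6% (27.3 to 36.1%) after 24 h.

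Both 24 h libraries had a larger 5′ share than both 0 h libraries, and 12 h replicate 3 stood with 0 h. In level, osa-miR5150-5p had 313 and 305 CPM at 0 h, 878 and 1297 after 12 h, and 1577 and 766 after 24 h, a change of 1.91 ± 0.74 at 24 h that missed the threshold (adjusted p = 0.0773) and passed under 3 alternatives. The 3′ arm, osa-miR5150-3p_L-1R+1, had 2504 and 1060, 892 and 5058, and 1661 and 1661 CPM, a change of −0.09 ± 0.71 (adjusted p = 0.967). The difference between the arms was not tested.

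In osa-miR1878 (chr9:16555509-16555608, plus strand) the 5′ arm had 76.3 and 75.0% of the reads at 0 h, 46.9 and 60.5% after 12 h, and 61.5 and 52.5% after 24 h. Every heated library was below both 0 h libraries, and in 12 h replicate 1 the 3′ arm, osa-MIR1878-p3, had more reads. osa-MIR1863a was the other hairpin whose larger arm was not constant, with 5′ shares of 56.8 and 73.3%, 43.8 and 78.6%, and 54.9 and 62.7%. In osa-MIR5542 the 5′ share was 19.6 and 17.8%, 18.6 and 17.6%, and 24.3 and 28.4%, highest in the 24 h libraries. These hairpins were picked after the shares had been seen.

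**Figure D5:**
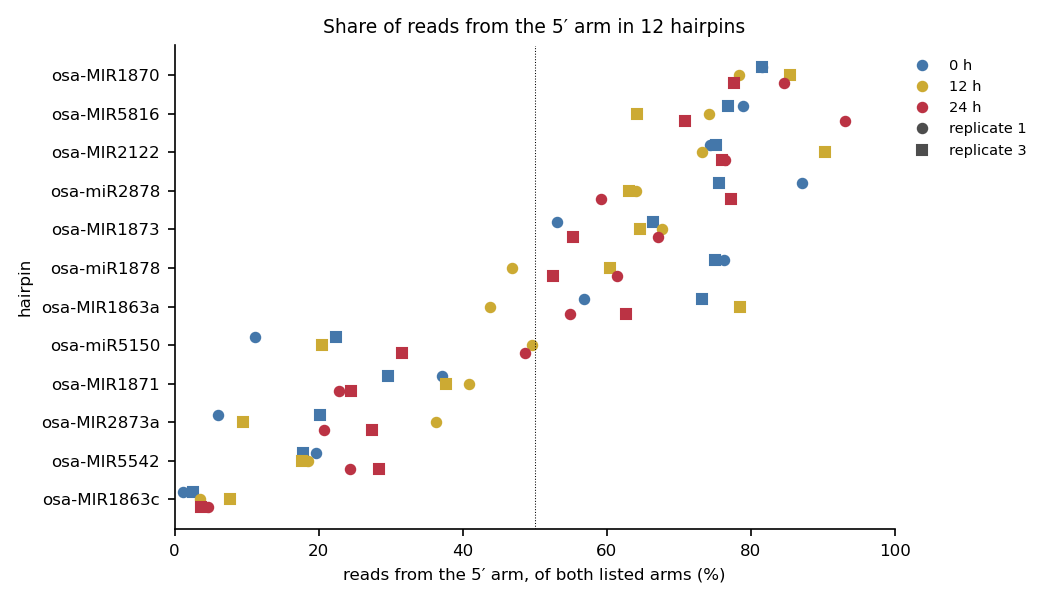
Share of reads from the 5′ arm (percent of the reads of both listed arms) for 12 hairpins, with 1 point per small RNA library, colours for time at 45 °C and shapes for replicates. The dotted line marks 50%. Most hairpins keep to the same side of the line, while osa-miR5150 spreads from 11.1 to 49.6%.

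In the degradome 19 of the 88 long miRNAs (21.6%) had a predicted cleavage site with reads. Of the other known and conserved sequences, 187 of 319 (58.6%) had one. These others are of all lengths and include the families set apart, some of them set apart together with their cleavage sites. The contrast in sites and reads is thus in part fixed by the choice. The degradome libraries held 12554074, 11033581 and 12960708 raw reads at 0, 12 and 24 h. The sites of the long miRNAs had at most 3 reads in a library, over 32 sites on 26 loci, while a site of the other sequences had up to 1032 and 35.9% of them had 4 or more. Of the 32 sites 22 (68.8%) had reads in a single library and 22 had at best category 4, a single read. With 1 library per time point there is no replicate check, and the exact 95% Poisson intervals are 0.0253 to 5.57 for 1 read, 0.242 to 7.22 for 2 and 0.619 to 8.77 for 3, so no difference between times was detectable.

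Category 0, the score of a site with the highest signal on its transcript, was given to 2 sites, both of miR812 and both at 12 h. osa-MIR812b-p5 had 2 reads at 12 h and 1 at 24 h at base 1368 of LOC_Os05g39540.1, annotated as a zinc transporter 5 precursor. osa-MIR812n-p3 had 2 reads at 12 h at base 985 of LOC_Os11g09260.1, an ankyrin repeat protein. Neither had a read at 0 h.

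Category 2 was the best score of 8 sites. osa-miR814a_L+2_2ss6TA9AC had 3, 1 and 2 reads at 0, 12 and 24 h on LOC_Os12g39380.1, an NPH3 family protein named for phototropism. osa-miR5150-3p_L-1R+1 had 2, 2 and 1 reads on LOC_Os05g51500.1, a translation initiation factor of the eIF-2 family. osa-MIR1863c-p5 had 3 reads, all at 0 h, on LOC_Os10g35110.1, an alpha-galactosidase, and osa-MIR818d-p5_2ss16AG19GT had 0, 3 and 1 reads on LOC_Os06g48500.1.

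The remaining 4 sites of category 2 belonged to osa-MIR5824-p5_1ss20TC, with at most 2 reads each. The locus listed for most sequences was LOC_Os07g45350.1, an E3 ubiquitin ligase. It was listed for 5 sequences of the families miR5788 and miR814 with 1 read each, all of category 4. For 4 of these, which share the seed GATTCGT, that read stood at the same base, 1372, in the same library, 24 h. It is thus 1 read listed for 4 related sequences, and the count of sites holds it once for each. Of the 3 sequences that changed between 0 and 24 h none was among the 19 with a site.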

How the data were processed

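The authors deposited, per mature sequence and small RNA library, raw reads as estimated counts (reads matching several positions were divided), a normalized signal (1 constant per library times the raw reads), and an analysis-of-variance p-value over the time points, per the file headers. For the degradome they deposited the read count at each predicted site and a category score, per the file headers. No source used here gives the mapper, database release, genome build or target finder. The authors' deposited table gives a p-value under 0.05 to 6 of the 88 and to 44 of all 483 (9.11%).

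The 588 listed entries held 483 distinct sequences, each used once. Values were rounded, and sequences reaching 10 reads in 2 or more libraries (459) entered the test, edgeR 4.0.16 in R 4.3.3 (quasi-likelihood, TMM, 2-sided, a joint fit of the 6 libraries by time point, Benjamini-Hochberg adjustment, threshold 0.05). This test had been planned for whole-number counts. The SE is the log2 change over the square root of F. The common dispersion was 0.219. Prior degrees of freedom were infinite, so SE and p rest on the shared spread. Alternatives used DESeq2 1.42.0 and limma 3.58.1. The script was tested on simulated data. Intervals and floors (3 reads) cover counting error only.

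Sequences are the deposited ones. Members and lists were chosen with earlier results of these data known. Named were sequences past the threshold, the 15 most abundant, the 3 highest and 3 lowest changes per comparison above the median level, those with a site of category 0 to 2, and the most abundant of each family or seed of 3 or more. The other names were chosen after their values were seen.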

Additional observations from a re-analysis of the deposited data

How the results depend on the processing

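Between 0 and 24 h 3 long miRNAs changed; 4 did with only the 4 libraries compared, 3 by DESeq2 (osa-miR5150-5p in place of stu-MIR8005a-p3_1ss6GA), 2 with DESeq2's size factors or with no filter on low counts, and 1 with library totals without the 3 most abundant sequences. The count was 0 with the authors' constants, by limma, with at least 50 reads in 2 libraries and with the replicate block, and ran from 0 to 4 when 1 library was left out. It was 0 without either 0 h library or without 24 h replicate 1, and 1 without 24 h replicate 3. The filter of 50 reads removes stu-MIR8005a-p3_1ss6GA; for the other losses the cause was not tested. Replicate numbers 1 and 3 are not described as pairs. Deviations of same-numbered libraries correlated at −0.12 (0 and 12 h), 0.15 (0 and 24 h) and −0.22 (12 and 24 h) over 459 sequences. Counts at 12 h against 0 h and at 24 h against 12 h were 0 under all 15 alternatives. The mean share of listed reads, 6.89, 6.98 and 3.08% at 0, 12 and 24 h, was 8.77, 9.33 and 5.80% without the 3 most abundant sequences and 3.65, 5.54 and 2.49% for 24 nt alone. Of 1506 values of 36 named sequences under alternatives, 27 lost and 3 gained a call, 0 called values changed sign, and 83 changed sign with a call in neither setting. Depth is a limit: 34 of 88 sequences were at or under 3 reads in 12 h replicate 3.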
